A study of Mus musculus with 24 samples.

Results

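The metallothionein genes Mt1, Mt2 and Mt3, the zinc exporter gene Slc30a1 and the metal-sensing transcription factor gene Mtf1 were followed through the embryonic cortex and neurosphere cultures of Cep135-mutant and control mice. They are 5 of the 54658 genes in the deposited table, were matched by symbol, and were chosen by their measured differences between genotypes, stages and culture times in these same 24 libraries. Their values are therefore given as levels and differences without p-values. The study asked how loss of CEP135, a protein of the centriole, alters gene expression in the developing neocortex. Mutants were Cep135 (-/-) embryos, homozygous for the Cep135(Δ8) allele, a small deletion in the second exon made by CRISPR/Cas9 editing of zygotes, and controls were Cep135 (+/+). RNA came from neocortex of the dorsal telencephalon at E11.5 (mutants A, B and C, controls D, E and F) and E14.5 (mutants 1, 2 and 6, controls 3, 4 and 5), and from incipient neurospheres grown from those same 6 E14.5 embryos for 12 or 24 h in serum-free medium with EGF and FGF2. Each of the 8 groups held 3 libraries from 3 embryos. The names of the E14.5 embryos share 1 prefix. By their titles, E11.5 mutant A and control D share another, and mutants B and C and controls E and F share a further one. The labels do not name litters, and the prefix was read here as the litter. Stage and litter so read cannot be told apart. The labels of E14.5 mutant 6 gave both ages, and its title was followed.

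Metallothioneins are small cysteine-rich proteins that bind zinc and copper, buffer their free levels in the cytosol and take up reactive oxygen species. Mt1 and Mt2 are expressed in most tissues and respond to zinc, glucocorticoids and oxidative stress, whereas Mt3, also called growth inhibitory factor, is the form typical of brain. MTF1, encoded by Mtf1, is the zinc-finger factor that senses free zinc, binds metal response elements and drives Mt1, Mt2 and Slc30a1, whose product ZnT1 moves zinc out across the plasma membrane.

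On GRCm38, Mt3 (chr8:94152607-94154146), Mt2 (chr8:94172664-94173568) and Mt1 (chr8:94179082-94180327) lie in this order on the plus strand, with 6418 bases between the starts of Mt2 and Mt1. Slc30a1 is at chr1:191906767-191913247 and Mtf1 at chr4:124802104-124849800, also on the plus strand. Mt2, Slc30a1 and Mtf1 each overlap an antisense gene, from which stranded counting separates them. Mtf1 also overlaps the small RNA gene n-R5s192 on its own strand. None of the 50-base windows of the members' transcripts (0%) occurred in the transcripts of another gene. Error-free reads of that length could so be told apart between Mt1, Mt2 and Mt3. The alignment allowed mismatches, and separation of reads with mismatches was not checked.

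The promoters of Mt1, Mt2 and Slc30a1 are shown because metal response elements are the feature through which these genes are known to answer zinc. Each sequence runs 5′ to 3′ on the plus strand from 250 bases before to 50 bases after the RefSeq gene start, on GRCm38.p6. Capitals mark matches, on either strand, to the core of the metal response element, spelled TGCACNC or TGCGCNC.
Mt1, chr8:94178839-94179138: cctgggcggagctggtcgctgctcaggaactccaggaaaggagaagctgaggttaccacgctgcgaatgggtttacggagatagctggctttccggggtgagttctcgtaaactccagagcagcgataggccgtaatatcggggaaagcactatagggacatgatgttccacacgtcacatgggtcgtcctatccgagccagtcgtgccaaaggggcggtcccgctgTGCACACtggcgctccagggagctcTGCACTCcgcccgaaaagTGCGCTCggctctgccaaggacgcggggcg
Mt2, chr8:94172368-94172667: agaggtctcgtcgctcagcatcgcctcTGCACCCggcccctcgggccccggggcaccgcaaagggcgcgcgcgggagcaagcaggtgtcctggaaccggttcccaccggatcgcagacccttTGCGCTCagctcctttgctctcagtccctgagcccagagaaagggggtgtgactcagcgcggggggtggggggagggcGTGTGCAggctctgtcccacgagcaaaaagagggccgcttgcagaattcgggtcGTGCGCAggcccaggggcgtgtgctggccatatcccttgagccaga
Slc30a1, chr1:191906531-191906830: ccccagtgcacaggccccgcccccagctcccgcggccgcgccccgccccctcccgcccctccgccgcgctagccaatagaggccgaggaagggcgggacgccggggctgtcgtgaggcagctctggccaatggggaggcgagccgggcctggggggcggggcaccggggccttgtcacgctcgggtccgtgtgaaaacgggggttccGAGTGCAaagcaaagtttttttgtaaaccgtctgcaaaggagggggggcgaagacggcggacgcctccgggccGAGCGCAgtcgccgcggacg
The Mt2 window held 4 matches, beginning at -223, -128, -50 and 5 with 1 as the first base of the gene in RefSeq. RefSeq and GENCODE starts differ, and the GENCODE start of Mt2 given above lies downstream of all 4. The Mt1 window held 3, beginning at -23, 3 and 21, and the Slc30a1 window held 2, at -43 and 31. The Mt3 window held 1 match and the Mtf1 window 0. Of 32851 RefSeq promoter windows of 300 bases, 25.7% held at least 1 match, 7.11% at least 2, 1.97% at least 3 and 0.517% at least 4. Of 55 such windows of the other zinc, copper and iron handling genes, 43.6% held a match. A second spelling, TGACNNNGC, the core of the antioxidant response element, occurred once each in the windows of Mt2 and Slc30a1 and in 12.4% of all windows, and no match overlapped another. GENCODE lists starts over 159 bases for Mt1 and over 196 bases for Mt2, so each window covers only part of what may act as promoter, and a match of letters is not a bound site.

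The libraries held 4732781 to 11645213 reads on genes, and each member was covered in every library, Mt1 by 92 to 756 reads, Mt2 by 39 to 440, Mt3 by 12 to 253, Slc30a1 by 26 to 202 and Mtf1 by 60 to 213. At 24 h the mutant libraries were deeper than the controls without overlap, at 7903426 to 11645213 against 4732781 to 5709443 reads. The share of the gene Gm42418 was also higher in the 24 h mutants, at 20.5% to 23.1% against 6.26% to 13.9%. Levels are normalized read counts, the reads of a gene divided by the size factor of its library. Cep135 itself ranged from 171 to 376 with mutants and controls overlapping in all 4 settings. The libraries hold the 3′ ends of transcripts, away from the deletion in the second exon, so this level does not check the labels. By Xist and Y-linked transcripts, the E14.5 mutants were 2 females and 1 male and the E14.5 controls 3 males, and at E11.5 the mutants were 2 females and 1 male and the controls 1 female and 2 males. All 9 dorsal telencephalon markers were above 0 in every group.

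Mt1 was higher in the mutant cortex at both ages. The E11.5 controls D, E and F had normalized read counts of 221, 301 and 361, and mutants A, B and C had 488, 365 and 416. The groups did not overlap, but mutant B and control F differed by little. Mutant A and control D, which share a name prefix, were the highest and the lowest, at 488 and 221. Among the E11.5 embryos of the other prefix, mutants B and C had 365 and 416 against 301 and 361 for controls E and F. In E14.5 cortex, controls 3, 4 and 5 had 208, 245 and 265 and mutants 1, 2 and 6 had 402, 448 and 412, a clear gap. The means were 423 ± 61.7 (SD, n = 3) in E11.5 mutants and 294 ± 70.6 in controls, a log2 fold change of 0.54 (SE 0.18). The E14.5 means were 421 ± 24.4 and 239 ± 28.8, a log2 fold change of 0.82 (SE 0.14), or 1.76-fold. The lone male among the E14.5 mutants, mutant 6, also lay above the 3 male controls. With sex as a term the E14.5 log2 fold change was 0.79. As all E14.5 controls were male, that fit compares mutant 6 alone with them and adds no separate evidence.

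Mt2 was higher in the mutant cortex at E14.5, and its E11.5 groups overlapped. The E11.5 controls D, E and F had 162, 205 and 180, and mutants A, B and C had 284, 176 and 272. Mutant B lay among the controls. In E14.5 cortex, controls 3, 4 and 5 had 188, 184 and 173 against 252, 267 and 323 for mutants 1, 2 and 6. The mutants stood apart from the controls, which were close together. The log2 fold change was 0.39 (SE 0.19) at E11.5 and 0.62 (SE 0.15) at E14.5, where the means were 281 ± 37.7 and 182 ± 7.64 (SD, n = 3). With sex as a term, which compares mutant 6 alone with the 3 male controls, the E14.5 value was 0.83.

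In culture the order of the genotypes stayed, with Mt2 separating them at both times and Mt1 at neither. After 12 h, controls 3, 4 and 5 had 99.1, 86.9 and 77.4 normalized reads of Mt2 against 102, 130 and 143 for mutants 1, 2 and 6. After 24 h, the controls had 61.4, 65.7 and 75.0 against 109, 140 and 120 for the mutants. The nearest libraries, mutant 1 and control 3, differed by little at 12 h, whereas the 24 h groups were well apart. The Mt2 log2 fold change was 0.50 (SE 0.29) at 12 h and 0.86 (SE 0.23) at 24 h, or 1.81-fold. Mt1 after 12 h was 145, 189 and 144 for controls 3, 4 and 5 against 188, 274 and 214 for mutants 1, 2 and 6. After 24 h the controls had 310, 418 and 393 against 411, 593 and 431 for the mutants. In both cultures mutant 1 lay just below control 4 and the other mutants above all controls. The Mt1 log2 fold change was 0.49 (SE 0.25) at 12 h and 0.35 (SE 0.18) at 24 h. The cultures come from the embryos of the E14.5 cortices, so the 3 settings are not independent.

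**Figure D1:**
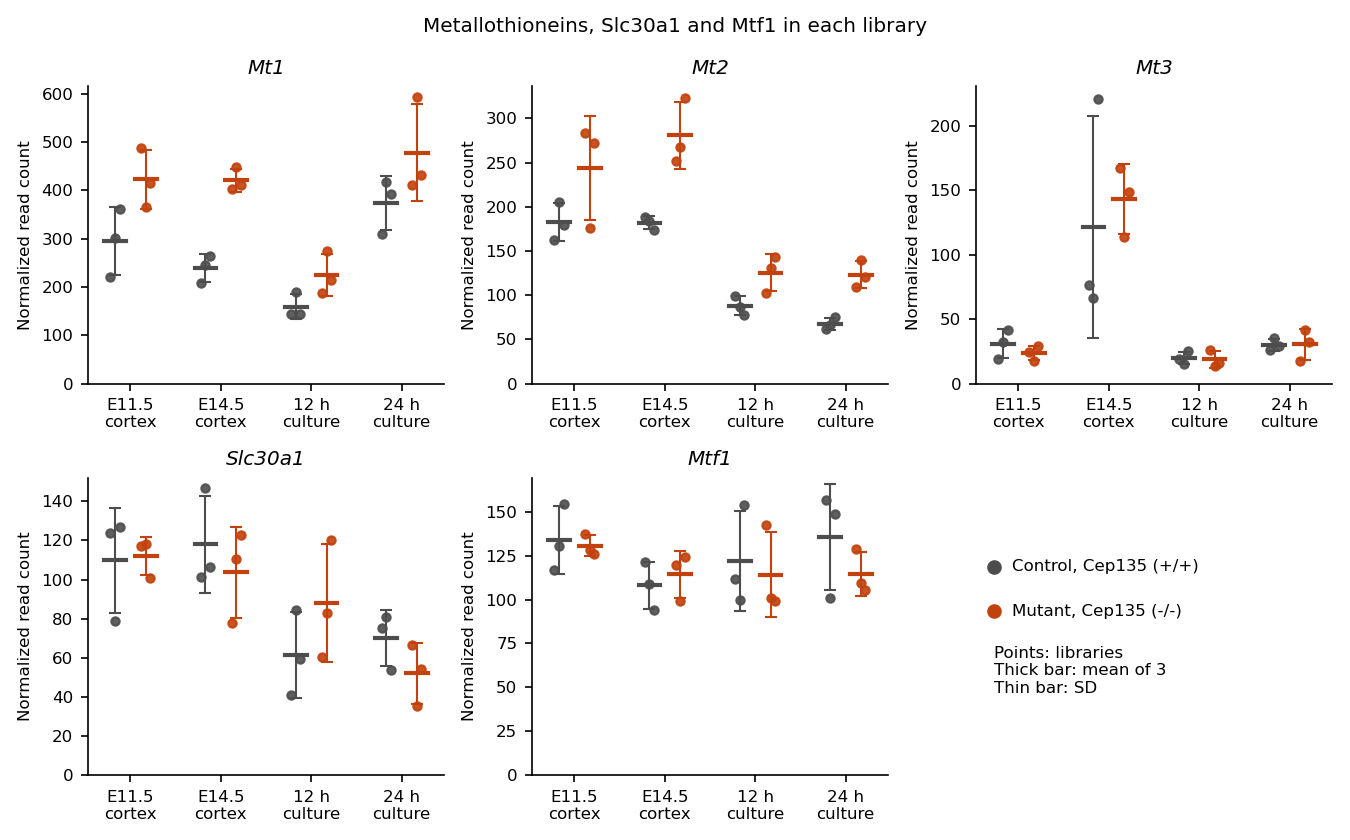
Normalized read count of Mt1, Mt2, Mt3, Slc30a1 and Mtf1 (vertical axes, linear from 0) in each library by stage and culture time, controls in grey and mutants in orange, with the mean of 3 as a thick bar and the SD as a thin bar. Mt1 and Mt2 sit higher in mutants in each setting, without overlap of the groups at E14.5 for both, Mt3 is high in E14.5 cortex, and Mtf1 is nearly flat.

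Mt3, the brain form, did not separate the genotypes in any setting. In E14.5 cortex, controls 3, 4 and 5 had 76.5, 66.8 and 221 against 167, 114 and 149 for mutants 1, 2 and 6. Control 5 exceeded every mutant, and without it the log2 fold change went from 0.44 (SE 0.37) to 0.98. The E11.5 controls D, E and F had 19.1, 32.6 and 41.2 against 24.5, 17.8 and 28.8 for mutants A, B and C. The cultures of both genotypes ranged from 13.7 to 41.5, and the genotypes differed by -0.10 (SE 0.66) on the log2 scale at 12 h and -0.06 (SE 0.42) at 24 h.

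Slc30a1, the exporter, and Mtf1, the zinc sensor, overlapped between genotypes in all 4 settings. Slc30a1 had 124, 78.6 and 127 in the E11.5 controls D, E and F against 117, 118 and 101 for mutants A, B and C. In E14.5 cortex, controls 3, 4 and 5 had 101, 147 and 106 against 77.9, 110 and 123 for mutants 1, 2 and 6. Its log2 fold change was 0.06 (SE 0.20) and -0.19 (SE 0.22) in these cortices. In culture the means were 87.9 ± 30.1 against 61.6 ± 21.9 (SD, n = 3) at 12 h and 52.1 ± 15.7 against 69.9 ± 14.3 at 24 h, so the order of the genotypes turned while the libraries overlapped. The Mtf1 log2 fold change lay between -0.22 (SE 0.23, at 24 h) and 0.08 (SE 0.18, at E14.5). The group means of Mtf1 ran only from 108 to 136.

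**Figure D2:**
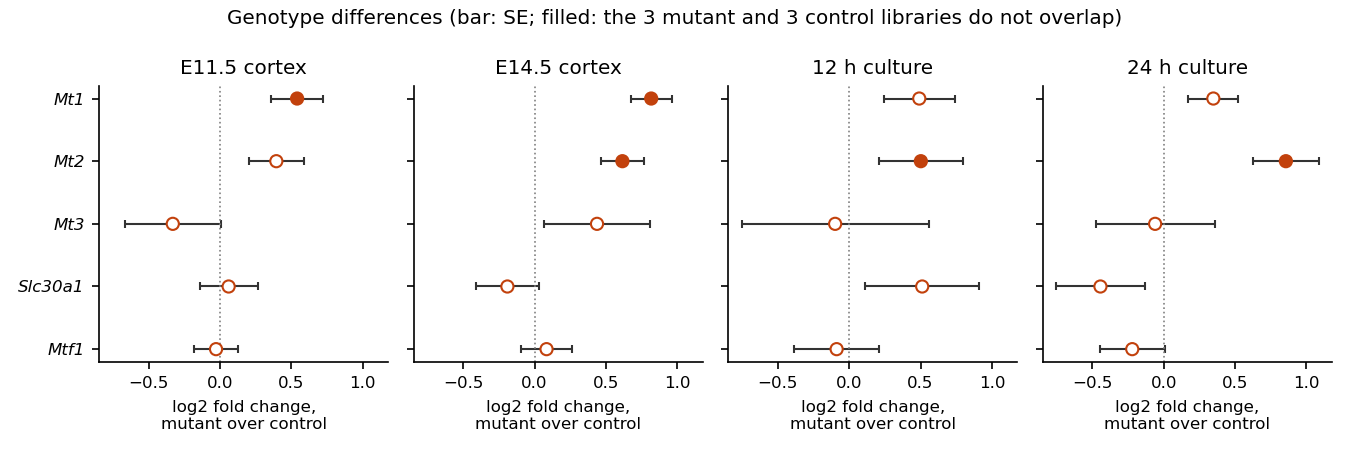
Log2 fold change of mutant over control (horizontal axes) with its SE for the 5 genes (rows) in the 4 settings (panels), where filled points mark genes whose 3 mutant and 3 control libraries do not overlap. Mt1 and Mt2 lie right of 0 in all 4 panels, from 0.35 to 0.86, while Slc30a1 and Mtf1 scatter about 0 with open points.

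Counted by separation of the groups, 1 of the 5 members did not overlap at E11.5 (Mt1), where 13.3% of all genes tested did not overlap in either direction. At E14.5 it was 2 of 5 (Mt1 and Mt2) against 13.7% of all genes, at 12 h 1 of 5 (Mt2) against 11.0%, and at 24 h 1 of 5 (Mt2) against 16.2%. Mt1 was among the 109 of 12789 genes, 0.852%, whose mutants lay above the controls without overlap at both E11.5 and E14.5. By limma's moderated test over all genes at an adjusted p of 0.05, 0 of the 5 members were called between the genotypes in any setting (1, 2, 0 and 1 members had an unadjusted p under 0.05 in the 4 settings), against 0.0149% of all genes at E11.5, 0.0736% at E14.5, 0% at 12 h and 0.271% at 24 h. At 12 h 0 genes were called by limma and 0 by edgeR, 9 were called by DESeq2, and 650 had an unadjusted p under 0.05. At E14.5 DESeq2 on whole reads, limma without a filter, and limma without control 5 each called Mt1, and edgeR did not. Because these contrasts served to choose the members, nothing is read from their counts.

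Like the members, the other genes of metal handling were not called between the genotypes by limma. Of all genes it called at most 0.271% in any setting, so nothing is read from 0 calls here. The list held 50 genes, 9 further Slc30 exporters, 14 Slc39 importers, 5 other metallothionein and metal-response genes, 11 genes of copper and 11 of iron. Of the 37 to 42 that passed the filter, limma called 0 in either direction in each of the 4 settings, with smallest adjusted p-values of 0.544 at E11.5, 0.282 at E14.5, 0.913 at 12 h and 0.325 at 24 h, and edgeR and DESeq2 on whole reads also called 0 in the 3 settings where they could be run. At an unadjusted p under 0.05 by limma there were 5, 5, 1 and 3 of them. Of all genes there were 991 of 13406, 1236 of 13583, 650 of 13389 and 1414 of 13300. Their median log2 fold change was 0.10 at E11.5, -0.14 at E14.5, 0.04 at 12 h and -0.05 at 24 h, and that of all genes tested lay between -0.02 and 0.02. The 9 Slc30 exporters other than Slc30a1 summed to 601 to 704 in E14.5 mutants and 769 to 809 in E14.5 controls, without overlap, although none of their 6 members tested was called. Slc39a10, a zinc importer, was 856 ± 66.8 in E14.5 mutants and 730 ± 53.0 in controls (SD, n = 3), a log2 fold change of 0.23 (SE 0.13, adjusted p = 0.604 by limma), and 3 of the 10 tested Slc39 importers had a log2 fold change above 0, with a median of -0.12. Mt4, the metallothionein of stratified epithelia, had no read in 22 of the 24 libraries. Genes that answer the other known inducers of Mt1 and Mt2 were tested as well. Of the antioxidant response 0 of 8 or 9 tested genes were called in each setting, and of the glucocorticoid response 0 of 9. This held by limma, and by edgeR and DESeq2 where they were run. With at most 0.271% of all genes called by limma in any setting, nothing is read from 0 calls in such short lists. By limma at an unadjusted p under 0.05 there were 1, 0, 0 and 0 antioxidant and 3, 1, 1 and 0 glucocorticoid response genes. The counts of all genes at this threshold are given above. At E11.5 Ddit4 (589 to 727 in mutants, 339 to 562 in controls), Sgk1 and Tsc22d3 of the glucocorticoid list were higher in mutants without overlap. So were Srxn1 and Blvrb of the antioxidant list, and the other genes of both lists overlapped. Of all genes tested, 13.3% did not overlap there in either direction. Ddit4 was also higher without overlap at 12 h (663 to 764 against 494 to 611). The part of these responses in the levels of Mt1 and Mt2 was not tested.

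Markers of other cell types moved with genotype in part of the settings in which Mt1 and Mt2 did. In bulk RNA, fewer cells of a type and less RNA per cell cannot be told apart. In the E14.5 cortex the 8 microglia markers, all above 0, summed to 772 to 962 in mutants and 415 to 487 in controls. Of the 7 tested, Cx3cr1, the fractalkine receptor of microglia, rose in mutants (366 ± 54.7 against 167 ± 7.75, n = 3, log2 fold change 1.12, SE 0.16, limma adjusted p = 0.0269). In culture these markers were nearly gone, at 6.31 to 65.0 in all 12 libraries with Trem2 at 0 throughout the 12 h cultures, and the 12 h mutants, at 6.31 to 15.6, lay below the 12 h controls, at 18.8 to 42.5. Choroid plexus markers (8 genes) summed to 1207 to 1249 in E11.5 mutants and 873 to 996 in controls, with Kcne2 at 0 in both groups. They were 918 to 8029 in E14.5 mutants and 3369 to 5636 in controls, 5000 to 16930 and 1144 to 4019 at 12 h, and 5313 to 18200 and 940 to 3751 at 24 h, with 3 of 6 tested genes called at 24 h (Sostdc1, Ttr and Clic6, all higher in mutants).

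Endothelial markers (8 genes) overlapped between genotypes in both cortices and at 24 h, and were 84.8 to 117 in mutants and 24.3 to 51.9 in controls at 12 h. Meningeal and fibroblast markers (8 genes) were 255 to 303 in mutants and 160 to 206 in controls at 24 h and overlapped elsewhere. The 12 liver markers were 79.2 to 931 in E11.5 mutants against 49.0 to 51.4 in controls, 58.7 to 85.0 against 65.9 to 1147 at E14.5, 234 to 1049 against 23.6 to 1551 at 12 h, and 125 to 445 against 11.2 to 27.0 at 24 h, where Alb and Serpina1e rose in mutants. In the E14.5 mutants Alb and 6 further liver markers were at 0 in all 3 libraries. Astroglial and radial glial markers were 2460 to 2755 in 24 h mutants and 1816 to 2084 in 24 h controls, and 4137 to 4206 in E14.5 mutants against 4364 to 4744 in E14.5 controls. Dorsal telencephalon markers were lower in mutant cortex, at 4906 to 5438 against 5760 to 6983 at E11.5 and 9021 to 12430 against 13060 to 14450 at E14.5, and Neurod6, a factor of postmitotic projection neurons, fell by 0.87 (SE 0.13, limma adjusted p = 0.0481) at E14.5. They were also lower in the 24 h cultures of mutants, at 8414 to 9483 against 9954 to 12790, with Neurod6 at a log2 fold change of -0.71 (SE 0.13, limma adjusted p = 0.0425). The 7 erythroid markers in the table overlapped between the genotypes in all 4 settings. The part of these cell types in the levels of Mt1 and Mt2 was not tested.

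**Figure D3:**
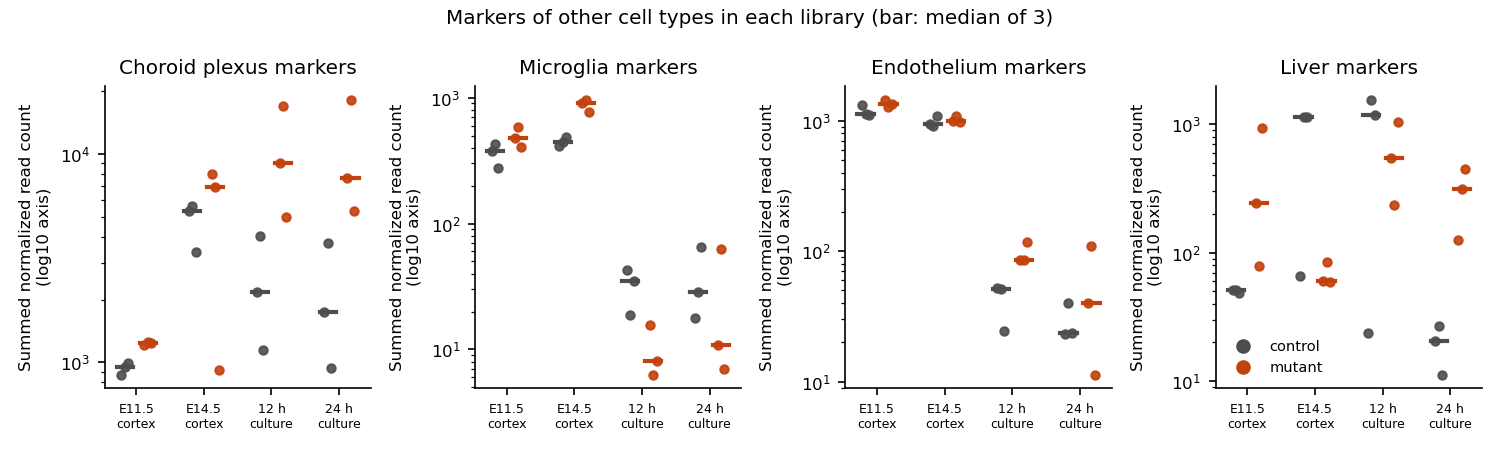
Summed normalized read count of the choroid plexus, microglia, endothelium and liver marker lists (vertical axes, log10) in each library, controls in grey and mutants in orange, with a bar at the median of 3. Choroid plexus sums are higher in mutants without overlap at E11.5 and in both cultures and not at E14.5. Microglia sums are higher in mutants at E14.5 and lower at 12 h, without overlap. Endothelium sums at 12 h and liver sums at E11.5 and 24 h are also higher in mutants without overlap. Microglia and endothelium markers are far lower in culture than in cortex.

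Across stages, Mt3 was the member that differed. From the levels above, all 6 E14.5 cortices, at 66.8 to 221, lay over all 6 E11.5 cortices, at 17.8 to 41.2. The log2 fold change from E11.5 to E14.5 was 1.78 (SE 0.44) in controls and 2.55 (SE 0.25) in mutants, or 5.86-fold in the latter. Mt1, Mt2 and Slc30a1 overlapped between the ages in both genotypes, with log2 fold changes of -0.28 to 0.23. Mtf1 overlapped in controls and was lower without overlap at E14.5 in mutants, by a log2 fold change of -0.19 (SE 0.17). Mt3 was called in both genotypes, so 1 of 5 members was called in controls against 37.1% of all genes and 1 of 5 in mutants against 39.3%. Without overlap were 1 of 5 in controls against 49.3% of all genes and 2 of 5 in mutants against 50.7%. Stage differences also served to choose the members, so nothing is read from these counts. Cell-type markers moved between the ages as well. The astroglial and radial glial genes Aldoc, Slc1a3 and Fabp7 rose in both genotypes (3 of 6 tested, with Hes5 lower in both and Glul lower in mutants). Dorsal telencephalon markers rose in 6 of 9 in each genotype, while 3 fell in controls and 1 in mutants. Meningeal markers fell in 5 of 8 in controls and 6 of 8 in mutants (2 rose in each), endothelial markers in 3 of 8 and 4 of 8 (1 rose in each), and erythroid markers in 5 of 7 and 4 of 7 (1 rose in each). Microglia markers rose in 1 of 6 and 5 of 7, and choroid plexus markers in 2 of 6 and 1 of 6 (1 fell in each). Liver markers rose in 5 of 7 in controls and fell in 3 of 6 in mutants. The part of these cell types in the level of Mt3 was not tested.

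Of the other metal genes, 12 of 40 tested changed between the ages in controls (7 higher and 5 lower at E14.5) and 17 of 40 in mutants (5 higher and 12 lower). These shares, 30.0% and 42.5%, were near the 37.1% and 39.3% of all genes. The largest rise in controls was that of Ndrg1, a gene induced by metals and hypoxia, at 173 ± 22.4 against 18.7 ± 3.73 in controls (SD, n = 3, log2 fold change 3.15, SE 0.22, limma adjusted p = 7.19e-06) and it rose by 2.13 (SE 0.25) on the log2 scale in mutants. Slc30a10, an exporter of manganese, rose by 2.78 (SE 0.31) and 2.64 (SE 0.25), and Selenow, a small selenoprotein, by 0.47 and 0.74. Slc39a11, a zinc importer of intracellular membranes, rose by 0.94 in controls and 0.51 in mutants. Csrp1, a zinc-binding LIM protein gene, fell in both genotypes, with a log2 fold change of -1.01 (SE 0.15) in each. Slc39a1, the importer ZIP1, fell with log2 fold changes of -0.42 in controls and -0.90 in mutants, and Tfrc, the transferrin receptor for iron uptake, with -0.73 and -0.64. In controls Slc39a3, Ncoa4 and Ftl1 also rose, while Slc39a10 and the copper-zinc superoxide dismutase Sod1 fell. In mutants Slc40a1, the iron exporter, also rose, and Pcbp2, Slc39a8 and Fth1, the ferritin heavy chain, were among those that fell. Of the response genes, Blvrb and Srxn1, of the antioxidant list, fell in both genotypes (-0.59 and -0.55 in controls, -1.27 and -1.08 in mutants), and of the glucocorticoid list Ddit4 rose in controls (0.88) and Tsc22d3 fell in mutants (-0.86). Of the 10 iron genes tested, 3 were called in controls and 7 in mutants, and the difference between the genotypes was not tested. The median log2 fold change of the 40 metal genes was -0.01 in controls and -0.26 in mutants, beside -0.08 and -0.07 for all genes. The counts moved with single libraries, to 7 in controls without the cortex of E, F, 3 or 4, and 10 in mutants without that of A, C or 1.

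After 12 h in culture all 3 metallothioneins were lower than in the cortex of the same embryos. Mt3 went from 66.8 to 221 in cortex to 13.7 to 26.3 in culture, lower in 6 of 6 embryos, with log2 changes of -3.13 to -1.96. Mt2 went from 173 to 323 down to 77.4 to 143, lower in 6 of 6 embryos. Mt1 went from 208 to 448 down to 144 to 274, again lower in 6 of 6 embryos. The log2 fold change was -2.37 (SE 0.45) in controls and -2.91 (SE 0.36) in mutants for Mt3, -1.05 (SE 0.21) and -1.16 (SE 0.21) for Mt2, and -0.59 (SE 0.20) and -0.91 (SE 0.18) for Mt1. Slc30a1 was 101, 147 and 106 in the cortex of controls 3, 4 and 5 and 40.9, 84.5 and 59.2 in their 12 h cultures, lower without overlap, with a log2 fold change of -0.97 (SE 0.31). In mutants 1, 2 and 6 it went from 77.9, 110 and 123 to 60.4, 83.1 and 120, overlapping, with -0.27 (SE 0.31). Mtf1 overlapped in both genotypes.

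Counted over the list, 2 of the 5 members were called after 12 h in controls (Mt2 and Mt3) against 16.0% of all genes, and 3 of 5 in mutants (Mt1, Mt2 and Mt3) against 8.95%. Without overlap were 4 of 5 members in controls against 36.5% of all genes and 3 of 5 in mutants against 32.3%. Without the cortex of control 3 or of control 4, only Mt3 was called in controls, and without the 12 h culture of control 4, Mt1 and Slc30a1 were also called. In mutants, Mt1 was not called without the 12 h culture of mutant 1 or the cortex of mutant 1 or 2. The members were chosen with these differences known, so nothing is read from their counts.

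Of the other metal genes, 8 of 39 tested changed after 12 h in controls and 5 of 40 in mutants, or 20.5% and 12.5% beside 16.0% and 8.95% of all genes. Tfrc rose in both, by 0.73 (SE 0.18, limma adjusted p = 0.0188) in controls and 0.92 (SE 0.20, 0.0185) in mutants. Atox1, the cytosolic copper chaperone, fell from 364 ± 25.3 to 160 ± 21.8 in controls (SD, n = 3, log2 fold change -1.18, SE 0.18, limma adjusted p = 0.00207) and also fell in mutants (-1.29, SE 0.21). Slc30a10 fell with log2 fold changes of -1.83 (SE 0.35) and -2.10 (SE 0.36), Selenow with -0.89 and -1.51, and Slc40a1 with -4.08 (SE 0.60) and -3.70 (SE 0.59). The pseudocount of 1 understates the change of genes as low as Slc40a1 in culture. In controls Slc39a1 and Slc39a8, importers of zinc, fell as well. No gene of the response lists was called in this step by limma or edgeR, with 1 to 2 antioxidant and 1 glucocorticoid response genes at an unadjusted p under 0.05 in each genotype, while DESeq2 called 1 of each list in mutants. The median log2 fold change of the other metal genes tested was -0.21 in controls and -0.01 in mutants, beside -0.04 for all genes in both. Without the cortex of control 3 or 4 the count in controls was 3, and without that of mutant 1 or 2 the count in mutants was 3. In the same step the markers of endothelium (8 of 8 in controls, 7 of 8 in mutants), meninges (8 of 8 in both) and microglia (6 of 6 tested in both) fell, and the choroid plexus gene Clic6 fell in controls. Astroglial and radial glial markers also fell, 4 of 6 tested in controls (Hes5, Fabp7, Slc1a3 and Aldoc) and 3 of 6 in mutants (Hes5, Slc1a3 and Fabp7, with Hopx higher), their sums going from 4364 to 4744 down to 1797 to 2096 in controls and from 4137 to 4206 down to 1957 to 2350 in mutants. Dorsal telencephalon markers fell in 3 of 9 and 2 of 9, Eomes and Pax6 in both genotypes. Erythroid markers rose in 5 of 7 and 4 of 7, and liver markers in 0 of 10 tested in controls and 7 of 8 in mutants. The part of these cell types in the lower metallothionein levels was not tested.

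Between 12 and 24 h Mt1 and Mt2 went separate ways. Mt1 was higher at 24 h in 6 of 6 embryos, by 1.01 to 1.12 on the log2 scale in mutants and 1.09 to 1.44 in controls. Its log2 fold change was 1.22 (SE 0.20) in controls and 1.08 (SE 0.21) in mutants, or 2.34-fold and 2.12-fold, and neither genotype's groups overlapped. Compared with the cortex of the same embryo, Mt1 at 24 h was higher by 0.57 to 0.77 in the controls and by 0.03 to 0.40 in the mutants. Mt2 in controls 3, 4 and 5 instead went from 99.1, 86.9 and 77.4 at 12 h to 61.4, 65.7 and 75.0 at 24 h, a log2 fold change of -0.37 (SE 0.26). In mutants it differed by -0.02 (SE 0.26) and went up in embryos 1 and 2 and down in embryo 6. Mt3 was higher at 24 h in all 3 controls, without overlap (0.60, SE 0.44), and in mutants 2 and 6 but not 1. Slc30a1 and Mtf1 overlapped.

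The ratio of Mt1 to Mt2 within a library, in which gene length cancels when libraries are compared, was 1.11 to 2.07 in the 12 cortices and 1.46 to 2.18 in the 12 h cultures. The 24 h controls had 5.04, 5.23 and 6.36 against 3.58, 3.77 and 4.25 for the 24 h mutants. All 24 h cultures thus lay above every other library, and the mutants below the controls.

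In this step 0 of 5 members were called in controls against 0.0150% of all genes, and 0 of 5 in mutants against 0.00748%, with 1 member of each genotype at an unadjusted p under 0.05, and limma called 2 and 1 genes in all. Without overlap were 3 of 5 members in controls (Mt1, Mt2 and Mt3) against 12.1% of all genes and 1 of 5 in mutants (Mt1) against 10.7%. With the embryo as a replicate block, which uses the pairing of cultures from 1 embryo, Mt1 was called in both genotypes with the same log2 fold changes of 1.22 (SE 0.20) and 1.08 (SE 0.18), among 37 and 28 genes called in all. DESeq2 on whole reads, limma without a filter and the fit of all 24 libraries also called it in both genotypes, and edgeR in neither. Differences between culture times served to choose the members, so nothing is read from these calls. None of the 37 other metal genes tested was called by limma in either genotype (adjusted p at least 0.815, 1 with an unadjusted p under 0.05 in each), and neither edgeR nor DESeq2 called any. No antioxidant or glucocorticoid response gene was called by limma, edgeR or DESeq2, and the choroid plexus, microglia and endothelium sums of the 2 culture times overlapped within each genotype. Other marker sums separated the times. In controls the erythroid markers went from 49090 to 69330 at 12 h down to 20040 to 34420 at 24 h, and the globin gene Hbb-bt fell (log2 fold change -1.55, SE 0.17, limma adjusted p = 0.00797). In mutants the astroglial and radial glial markers went from 1957 to 2350 up to 2460 to 2755, and the dorsal telencephalon markers from 9560 to 11990 down to 8414 to 9483, with no marker of either list called. Their part in the levels of Mt1 was not tested.

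**Figure D4:**
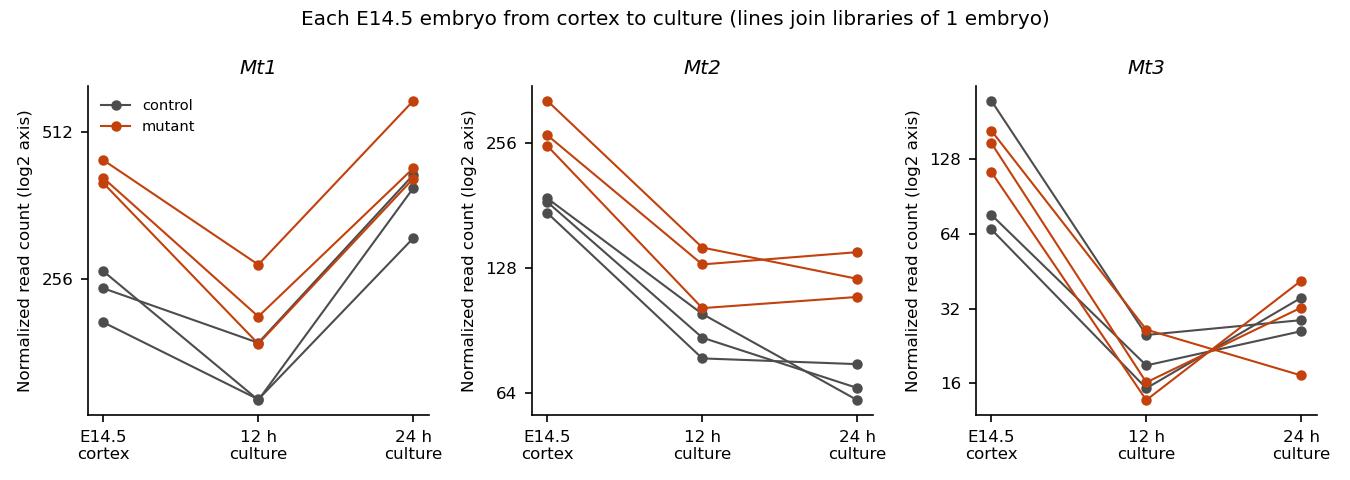
Normalized read count (log2 axes) of Mt1, Mt2 and Mt3 in the E14.5 cortex, 12 h culture and 24 h culture of each of the 6 embryos, with lines joining the libraries of 1 embryo, controls in grey and mutants in orange. All 6 lines of Mt1 dip at 12 h and climb at 24 h, those of Mt2 drop at 12 h and do not return, and those of Mt3 drop at 12 h, by log2 changes of -3.13 to -1.96.

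The order of the 8 group means differed between the members. Mt1 was highest in the 24 h mutant cultures (478) and lowest in the 12 h control cultures (159), with each group overlapping its neighbour in the order. Mt2 was highest in E14.5 mutants (281) and lowest in 24 h controls (67.4). A break without overlap lay between the lowest cortical group, the E14.5 controls, and the 12 h mutants. Further breaks lay between the 24 h mutants and the 12 h controls, and between the 12 h and the 24 h controls. Mt3 was highest in E14.5 mutants (143) and controls (121), with a break below them to the E11.5 controls (31.0). Slc30a1 ran from 118 in E14.5 controls to 52.1 in 24 h mutants, and all neighbours overlapped, as they did for Mtf1.

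Over the 24 libraries, which share embryos and cultures, the log2 levels of Mt1 and Mt2 had a Pearson r of 0.36, and 0.49 after the 8 group means were subtracted. Mt2 and Slc30a1 had r = 0.56 over the 24 libraries and -0.12 after subtraction, and Mtf1 had r between -0.19 and 0.01 with the other members before subtraction. The genes most like Mt2 among all genes tested were Nid1 (r = 0.914), Sparc (0.914) and Adgrv1 (0.904). Nid1 and Sparc encode proteins of basement membrane and extracellular matrix. Those most like Mt1 were Swap70 (0.802), Grn (0.760) and Pbxip1 (0.725), and those most like Mt3 were Cotl1 (0.888), Prkcb (0.874) and Sparcl1 (0.867). Slc30a1 was most like Tmem230 (0.817), Oard1 (0.815) and Atp5e (0.811), and Mtf1 most like Krit1 (0.709), Rem2 (0.697) and Klhdc8b (0.694). After subtraction of the group means the leading gene was Slc25a37, the mitochondrial iron importer mitoferrin, for Mt1 (0.810), Ccdc43 for Mt2 (0.778), Olfr73 for Mt3 (0.824), Pank1 for Slc30a1 (0.824) and Adam22 for Mtf1 (0.887). These are the highest of about 13678 correlations each and are given as a description.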

How the data were processed

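The data were 24 libraries of 3′ mRNA sequencing (QuantSeq, oligo(dT) priming) of mouse neocortex and neurospheres. Per the paper's methods and the submitters' processing notes, the authors aligned reads to GRCm38 with TopHat2 (version 2.0.10, with SAMtools 0.1.19 and Bowtie 1.0.0), and counted them by strand with HTSeq (0.6.1) on GENCODE genes. The deposited table holds signal, the read counts of each gene divided by 1 size factor per library. How the size factors were made is not given in the sources used here. All 484666 values above 0 were whole multiples (within 0.001 reads) of the value of 1 read, so reads were recovered for 23 libraries. In E11.5 control D 1 read is worth 1.008, too near 1 to be told from rounding, so edgeR and DESeq2 were not run on the 2 comparisons that include it.

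In 10 comparisons, genes with a mean of at least 10 were tested by limma-trend (limma 3.58.1 in R 4.3.3) after adding 1 to each normalized read count and taking log2, with Benjamini-Hochberg adjustment over all genes and a threshold of 0.05, two-sided. The fitted fold changes are on this scale. The method was tested on simulated data. P-values measure the spread among 3 embryos a group. Alternatives were pseudocounts of 0.1 and 5, no filter, a mean of at least 50, quantile normalization, library totals without Gm42418, edgeR (4.0.16), DESeq2 (1.42.0), all 24 libraries in 1 fit, sex, litter or embryo as a term, and leaving out each library. Cortex and cultures with the same number come from the same embryo per the labels, and their deviations correlated by -0.114 to 0.235 over 18 pairs, 12 of them above 0.1.

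The members, the metal, response and marker lists and the tests were chosen with earlier results of these data known. Named genes are the members, the called genes of the metal and response lists (up to 6 a direction), Slc39a10, Selenow, Mt4 and Slc30a10, the 3 genes most correlated with each member, and marker genes. Positions came from GENCODE vM21 and promoters from RefSeq on GRCm38.p6, in which all 5 members matched by symbol. Sex was read from Xist and Y-linked transcripts. Marker lists were summed as normalized read counts.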

Additional observations from a re-analysis of the deposited data

How the results depend on the processing

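The 50 log2 fold changes of the members took 770 values under the alternatives. None that separated its groups changed sign, and 1 moved by more than the SD between replicates: Mt2 at E14.5, from 0.62 to 0.83 with sex as a term. That fit compares the lone male mutant with the male controls. With no library left out, the alternatives gave a genotype difference of 0.242 to 0.396 for Mt2 at E11.5. For Mt1 at 24 h they gave 0.219 to 0.405. Leaving out 1 library kept the genotype difference of Mt1 between 0.35 and 0.70 at E11.5, 0.72 and 0.89 at E14.5, 0.34 and 0.62 at 12 h and 0.18 and 0.45 at 24 h, and that of Mt2 between 0.27 and 0.61, 0.51 and 0.69, 0.40 and 0.64, and 0.76 and 0.94. The count of members called between genotypes at E14.5 went from 0 to 1 without a filter and with DESeq2, and from 0 to 1 when libraries were left out. After 12 h in controls it went from 2 to 4 with the total without Gm42418 and with all 24 libraries in 1 fit, and from 1 to 4 with libraries left out. Between 12 and 24 h it was 1 in controls and 1 in mutants without a filter, with DESeq2, with all 24 libraries in 1 fit and with the embryo as a replicate block, and 0 to 1 in controls with libraries left out. The replicate block changed no other call of a member. Metal genes called between the ages fell from 17 to 11 in mutants with all 24 libraries in 1 fit. Their counts with libraries left out were 7 to 13 in controls and 10 to 23 in mutants between the ages, and 3 to 11 in controls and 3 to 5 in mutants after 12 h. In the 4 genotype comparisons and from 12 to 24 h, 0 metal genes were called under any alternative run. The causes were not tested. Mt3 was covered by as few as 12 reads in a library, and small differences in it were not detectable at this depth.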
